A study of Mus musculus with 118 samples.

Results

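Voltage-gated sodium channels open when a neuron depolarizes and carry the inward current of the action potential. Each channel is built on 1 large alpha subunit, which forms the pore and carries the voltage sensors and the inactivation gate, and on smaller beta subunits, which are membrane proteins with an immunoglobulin-like domain that tune gating and surface level. The 6 genes described here are the alpha subunits *Scn1a* (Nav1.1, the channel typical of cortical interneurons), *Scn3a* (Nav1.3, best known from developing brain) and *Scn8a* (Nav1.6, concentrated at the axon initial segment), and the beta subunits *Scn2b*, *Scn3b* and *Scn4b*. They were taken by name from the 23998 gene symbols of the count table, and all 6 were measured. The family was selected on measured values of these same cells, among them the counts of *Scn3b* in the 2 areas in layer 4 (L4), so the levels below are a description and carry no test.

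The study recorded somatostatin-positive (SOM+) neurons of the adult mouse neocortex with a patch pipette, drew out the cytosol and sequenced its RNA (Patch-seq). The mice carried SOM-Cre and Ai9, so a cell was red if it had expressed somatostatin at any time, and the labelled population can hold cells of other interneuron classes. The cells came from L4 and layer 5 (L5) of primary visual cortex (V1) and primary somatosensory cortex (S1), and the comparison of areas asks whether SOM+ cells of V1 and S1 differ in their transcripts. All 4 groups share the same genotype and the labels name no treatment.

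The labels gave 44 cells of V1 L4, 39 of S1 L4, 19 of V1 L5 and 16 of S1 L5. A cell was kept if it showed 1500 or more genes, contained *Sst* counts, and did not exceed the sum of *Gad1* and *Gad2* in *Slc17a7*, a glutamatergic marker. This left 42 cells of V1 L4, 34 of S1 L4, 17 of V1 L5 and 16 of S1 L5. For lack of *Sst* counts 4 S1 L4 cells were left out, 4 further cells for too few genes and 1 as glutamatergic. All 8 genes of a list of SOM interneuron markers were detected in every group. Such detection asks for a count in only 1 cell of the group, and *Sst*, *Gad1* and *Gad2* of the list also entered the filter. By the same rule all 5 genes of a list of excitatory markers were detected in V1 L4, S1 L4 and S1 L5, and 4 in V1 L5. Total counts per kept cell ran from 97904 to 3295232, with a median of 1111833. No label names an animal, and each area and layer therefore counts as 1 sample with no p-value. The sample labels carry 9 dates, numbered here in order, which are more than the mice of the methods, so dates may share an animal. L5 cells came only from dates 3 to 6, date 1 held only V1 L4 cells and date 9 only S1 L4 cells. The spread given with a difference is the standard deviation (SD) over the dates that hold at least 2 cells of each group.

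Counts of related genes are separable only where their sequences differ over a read of 75 bases. Over whole principal transcripts (GENCODE M21, GRCm38), 215 of 8312 windows of 75 bases in *Scn1a* (2.59%) and 482 of 9486 in *Scn3a* (5.08%) occurred in a transcript of another member or of *Scn2a1* or *Scn9a*, and 0 in *Scn8a*, *Scn2b*, *Scn3b* and *Scn4b*. The beta subunits are not alike over a read. The most similar ungapped coding windows matched at 39 of 75 bases for *Scn3b* with *Scn2b*, at 38 for *Scn3b* with *Scn4b* and at 43 for *Scn2b* with *Scn4b*. The pair of *Scn3b* and *Scn2b* is shown because these genes made up most of the beta class and their balance differed between areas. The windows lie in exon 4 of *Scn3b* (chr9:40279440-40279514) and exon 3 of *Scn2b* (chr9:45125501-45125575), both on the plus strand, 5′ to 3′, with capitals in *Scn2b* at the bases that differ from *Scn3b*.
Scn3b: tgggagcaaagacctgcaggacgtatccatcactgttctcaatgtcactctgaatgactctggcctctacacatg
Scn2b: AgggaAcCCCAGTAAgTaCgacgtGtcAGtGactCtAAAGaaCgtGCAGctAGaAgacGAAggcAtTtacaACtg

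The genes lie on 3 chromosomes of GRCm38. *Scn3a* (chr2:65457118-65567627) and *Scn1a* (chr2:66270778-66440840) are both on the minus strand of chromosome 2, 703 kb apart. *Scn8a* is on the plus strand at chr15:100869858-101045938. The 3 beta subunit genes are on the plus strand of chromosome 9, *Scn3b* at chr9:40269217-40291618, *Scn2b* at chr9:45117782-45130070 and *Scn4b* at chr9:45138395-45154152, so that only 8324 bases separate *Scn2b* from *Scn4b*. An annotated gene on the opposite strand overlaps *Scn1a*, *Scn3a*, *Scn2b* and *Scn3b* each (Gm13630, Gm13595, Gm10684 and Gm47266), and since the library protocol does not mark strand, reads of the partners could not be separated.

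Most SOM+ cells held several of the 6 subunits. All 6 were detected in 4 cells, 5 in 51 cells and 4 in 38 cells. Of the rest, 12 cells held 3, 3 cells held 2 and 1 cell of V1 L5 held none. Detection means at least 1 count, and shares of cells are given with exact 95% Clopper-Pearson intervals in the plot of detection. These intervals treat cells as independent draws and cover no spread between dates or animals, so they are no test between groups.

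**Figure D1:**
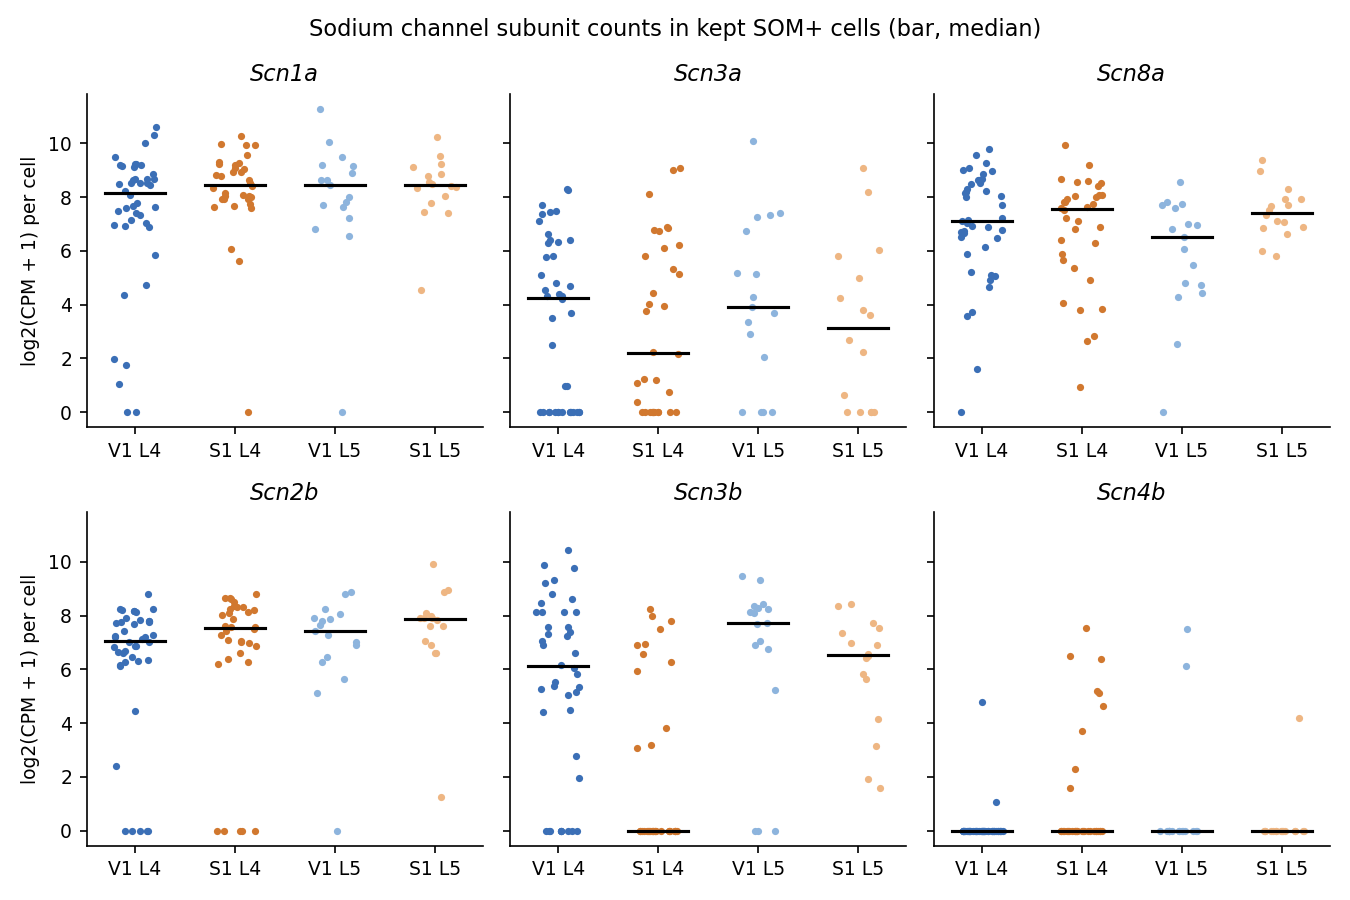
Level of each subunit gene, log2(CPM + 1), in the kept cells of V1 L4 (n = 42), S1 L4 (n = 34), V1 L5 (n = 17) and S1 L5 (n = 16). Each point is 1 cell and the bar is the median over cells; the median of Scn3b lies at 6.11, 0, 7.73 and 6.52 in that order, while that of Scn1a stays between 8.14 and 8.46.

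*Scn1a* had the highest mean of the 3 alpha subunits per transcript length in every group, as given with the RPKM values. It was detected in 40 of 42 V1 L4, 33 of 34 S1 L4, 16 of 17 V1 L5 and 16 of 16 S1 L5 cells. On the log2(CPM + 1) scale, where CPM is the gene's counts scaled to a total of 1000000 per cell, its lowest, median and highest values were 0, 8.14 and 10.61 in V1 L4. They were 0, 8.46 and 10.28 in S1 L4, 0, 8.45 and 11.29 in V1 L5, and 4.54, 8.46 and 10.22 in S1 L5. The 4 groups overlapped almost wholly. At the low end of the plot of levels lay 5 V1 L4 cells of dates 1 to 3, between 0 and 1.97. These cells pulled the V1 L4 average down to 7.27, beside 8.26 for S1 L4. The order of the areas does not rest on them alone, since the median was also lower for V1 L4.

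*Scn8a* was detected in nearly every cell, in 41 and 34 L4 cells of V1 and S1 and in 16 L5 cells of each area. Its lowest, median and highest values were 0, 7.12 and 9.80 in V1 L4 and 0.92, 7.55 and 9.95 in S1 L4. In V1 L5 they were 0, 6.52 and 8.55, and in S1 L5 they were 5.81, 7.43 and 9.37. The S1 L5 cells formed the narrowest group, with an SD over cells of 0.96, against 2.2 in V1 L5 and 2.1 in both L4 groups.

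*Scn3a* was the sparsest alpha subunit, with counts in 27 of 42 V1 L4 cells (64.3%), 23 of 34 S1 L4 (67.6%), 13 of 17 V1 L5 (76.5%) and 11 of 16 S1 L5 (68.8%). Its highest cells reached 8.30, 9.09, 10.08 and 9.09 on the log2 scale in these groups, with medians of 4.26, 2.19, 3.90 and 3.14, so each group held both cells with no count and cells with a high level. Its detection moved with the span of dates: 18 of 21 V1 L4 cells had it in June and July and 9 of 21 in September, beside 12 of 16 and 11 of 18 in S1 L4.

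*Scn2b*, a beta subunit that bonds covalently to the alpha subunit, was the steady one of its class. It was detected in 37 of 42 V1 L4, 29 of 34 S1 L4, 16 of 17 V1 L5 and 16 of 16 S1 L5 cells. Its medians were 7.07, 7.55, 7.42 and 7.88 in these groups, and its highest cells reached 8.79, 8.81, 8.86 and 9.91. Cells without a count lay at the lower end of both L4 groups, 5 in each area.

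*Scn3b*, a beta subunit that associates without a covalent bond, was the member with the most unlike detection between areas in L4. It had counts in 33 of 42 V1 L4 cells (78.6%, interval 63.2 to 89.7%) but in 12 of 34 S1 L4 cells (35.3%, interval 19.7 to 53.5%). In L5 it was found in 14 of 17 V1 cells (82.4%, interval 56.6 to 96.2%) and 16 of 16 S1 cells (interval 79.4 to 100%). The L5 cells are all from dates 3 to 6, where *Scn3b* was found in 6 of 7 V1 L4 and 7 of 12 S1 L4 cells (58.3%). Its lowest, median and highest values were 0, 6.11 and 10.45 in V1 L4 and 0, 0 and 8.26 in S1 L4. For L5 they were 0, 7.73 and 9.47 among V1 cells and 1.58, 6.52 and 8.42 among S1 cells. The L4 groups overlapped in range, and the S1 L4 cells with counts reached well into the range of V1 L4.

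The summed counts also placed S1 L4 lowest, with *Scn3b* in L4 at 198 CPM in V1 (exact Poisson 95% interval 194 to 202, counting error only) and 46.7 in S1 (44.8 to 48.7). In L5 it was at 211 CPM in V1 (205 to 218) and 122.01 in S1 (117.14 to 127.03). A cell that had *Scn3b* at all usually had many counts of it: the counts in detected cells had a median of 236 in V1 and 124.5 in S1 for L4, and of 250 and 136.5 for L5. None of the detected L4 cells had 3 counts or fewer. Of the detected L5 cells, 0 of 14 in V1 and 3 of 16 in S1 did. Thinning each cell to 250000 counts left it in 32 of 42 V1 L4 and 12 of 34 S1 L4 cells, and in 13 of 15 V1 L5 and 14 of 15 S1 L5 cells.

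*Scn4b*, best known from fast-firing neurons, where its cytoplasmic tail takes part in resurgent current, was rare. It had counts in 14 cells, which were 2 of 42 for V1 L4 and 9 of 34 for S1 L4, with 2 of 17 for V1 L5 and 1 of 16 for S1 L5. It was the only member under the filter on low counts, which asks for 32 counts or more in 10 kept cells or more. The 14 cells held between 1 and 431 counts, and the top cells of V1 L5 and S1 L4 reached 7.52 and 7.54 on the log2 scale. The 9 S1 L4 cells came from dates 2, 5, 7, 8 and 9. *Pvalb*, the calcium-binding protein that marks most fast-spiking interneurons, had r = 0.26 with *Scn4b* over all kept cells, a weak relation of points that share libraries and depth. Taken within group and date, this r was 0.14.

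**Figure D2:**
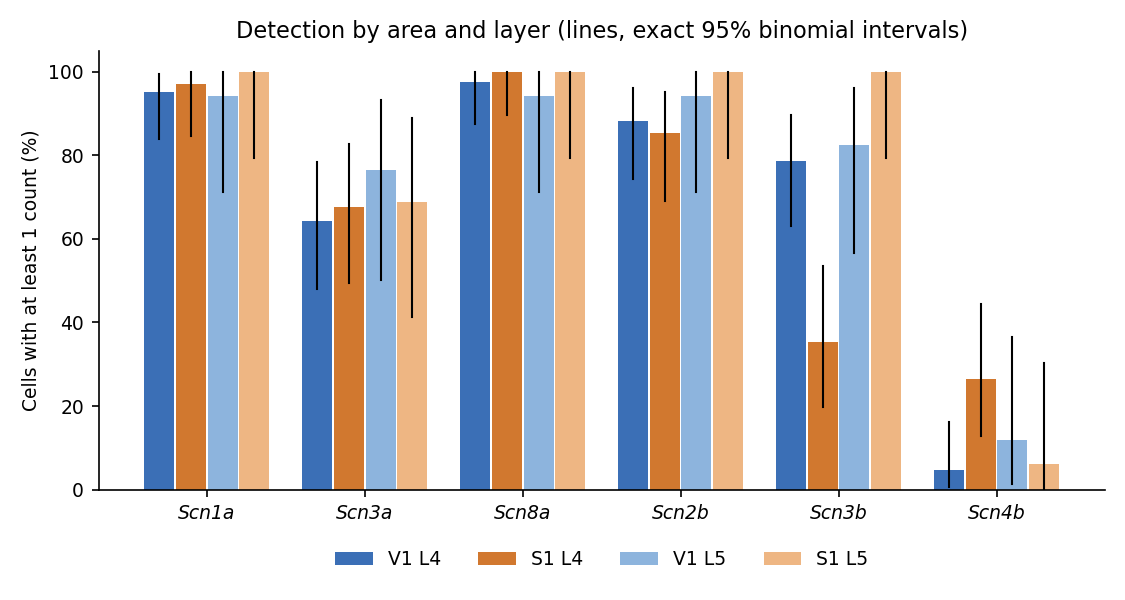
Share of kept cells with at least 1 count of each subunit gene, in percent, by area and layer. Lines are exact 95% binomial intervals that treat cells as independent draws. Scn3b is at 35.3% in S1 L4 and 78.6% in V1 L4, and Scn4b is at most at 26.5%.

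Between areas in L4, the largest difference of the family was that of *Scn3b*, which was lower in S1. The means of log2(CPM + 1) were 2.18 in S1 and 5.43 in V1, a difference, S1 minus V1, of -3.25 (SD 1.52 over 5 dates), the sixth most negative of 9993 genes past the filter. Of these genes, 14.9% differed by at least 2-fold (1 on the log2 scale) in either direction, 7.64% higher and 7.29% lower in S1, with a median difference of 0.01. Among the 5 members past the filter, 0 were at least 2-fold higher and 1, *Scn3b*, at least 2-fold lower.

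*Scn3b* was lower in S1 on each of the 5 dates with at least 2 L4 cells of each area. The difference was -4.21 on date 2, -4.73 on date 3, -0.96 on date 5, -4.38 on date 7 and -3.31 on date 8, with a mean of -3.52. Over all filtered genes, 6.51% had the same sign on all 5 dates, and 3.01% also differed by at least 2-fold. On date 2, 0 of 4 S1 L4 cells and 6 of 11 V1 L4 cells had a count, and on date 7 the numbers were 3 of 9 and 11 of 12. Date 4, left out of this comparison since it held 1 V1 L4 cell, went the other way: its 3 S1 L4 cells had a mean of 5.17 and the V1 cell was at 4.41.

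The level was uneven over dates in both areas. *Scn3b* was found in 7 of 16 S1 L4 cells of June and July, with a mean of 3.01, and in 5 of 18 of September, with a mean of 1.45. In V1 L4 it was found in 15 of 21 cells of June and July (mean 5.33) and 18 of 21 of September (mean 5.54). By date, the mean ran from 4.21 to 9.01 in V1 L4 and from 0 to 5.17 in S1 L4. Within June and July the area difference was -2.32, and within September it was -4.09.

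**Figure D3:**
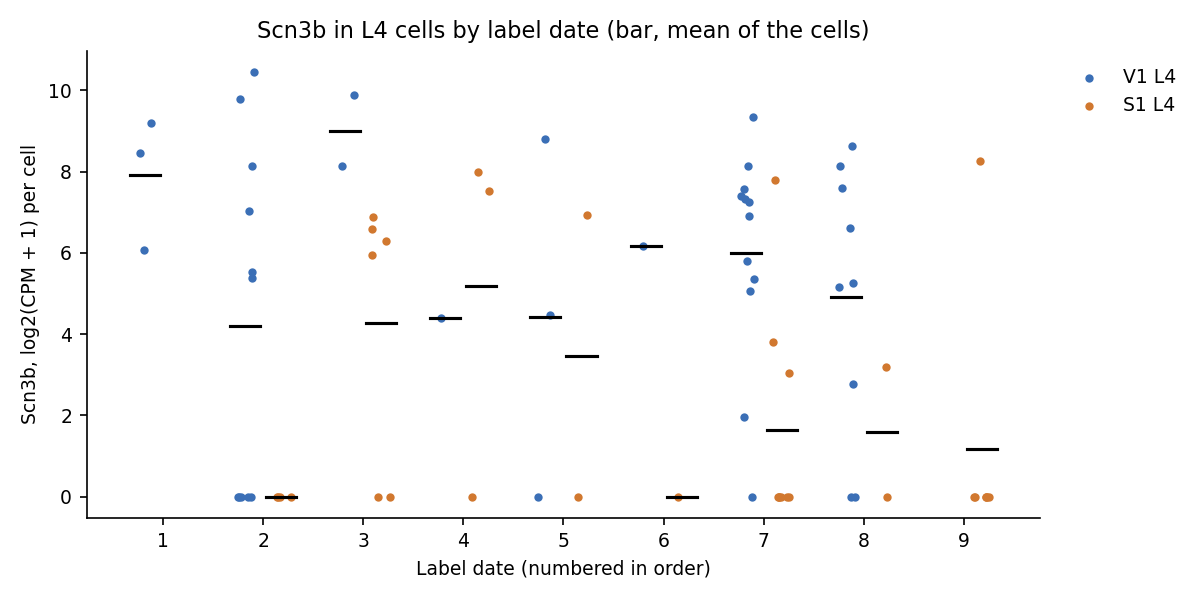
Scn3b, log2(CPM + 1), in each L4 cell of V1 (42 cells) and S1 (34 cells) against the numbered label date; the bar is the mean of the cells of 1 area on 1 date. S1 lies below V1 on dates 2, 3, 5, 7 and 8, while date 4, with 1 V1 cell, has S1 at 5.17 and V1 at 4.41.

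None of the other members separated the areas in L4 beyond the spread over dates. *Scn4b* was higher in S1 by 1.12 (SD 1.21), on 4 of 5 dates and equal on date 3, where neither area had a count. It was under 2-fold without date 2 (0.92) or without date 9 (0.80), and the fold is understated by the pseudocount since it was at 0 in most cells. *Scn1a* was higher in S1 by 0.98 (SD 2.38), from -2.04 on date 8 to 4.30 on date 3. Within June and July its difference was 2.64, and within September it was -0.62. *Scn3a* (-0.31, SD 1.5), *Scn8a* (-0.23, SD 1.45) and *Scn2b* (0.28, SD 1.26) differed little for their spread. The sign of *Scn2b* was not steady: it was lower in S1 on 4 of 5 dates, with a mean of -0.91 within dates. Without date 9, which held only S1 L4 cells, its difference over all cells was -0.08. *Scn1a*, at 0.98, was the member just under the 2-fold line and *Scn4b*, at 1.12, the one just over it.

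**Figure D4:**
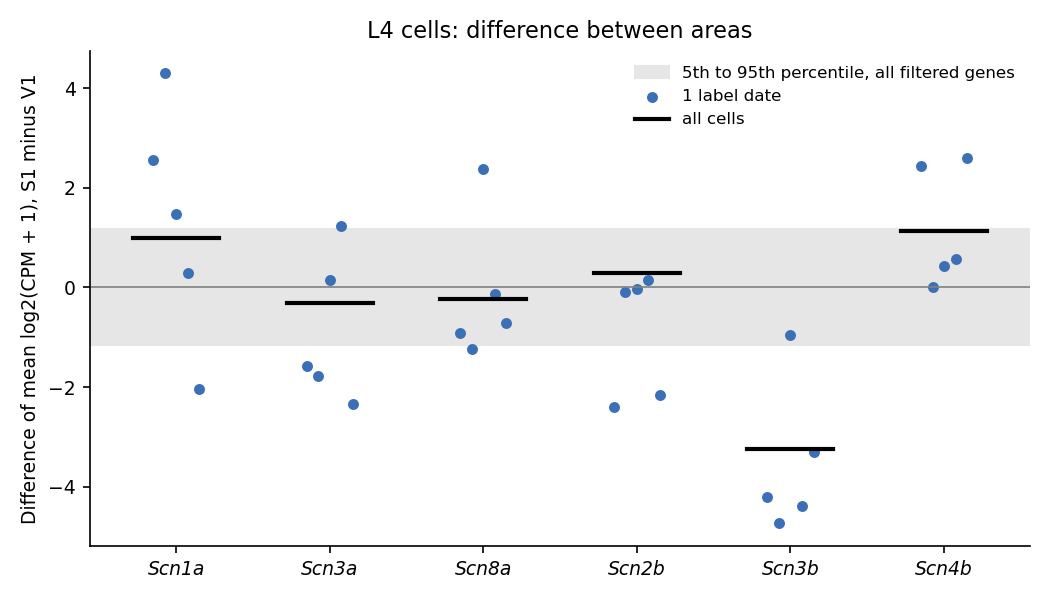
Difference of mean log2(CPM + 1), S1 minus V1, in L4 cells, for the 6 members. Points are the 5 dates with at least 2 cells of each area, bars the value over all cells, and the grey band the 5th to 95th percentile of 9993 filtered genes, from -1.14 to 1.17; the Scn3b bar lies at -3.25, outside it.

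Markers of oligodendrocytes, the myelinating glia, moved with area in the same cells. The 6 genes of that list summed to 267 CPM in V1 L4 and 1115 in S1 L4, and for L5 to 239 in V1 and 731 in S1, with single cells from 0 to 9702 CPM in S1 L4. Over cells, *Scn3b* and the log of this sum had r = -0.06 in V1 L4 (n = 42) and r = -0.17 in S1 L4 (n = 34). *Mag* was at 0 in V1 L4 and *Mog* in V1 L5. The part of these markers in the area difference was not tested. A list of 5 markers of fast-spiking interneurons summed to 225 and 388 CPM in L4 of V1 and S1. In L5 the sums were 248 and 250. Its *Syt2* was at 0 in every group but S1 L5 and its *Tac1* in S1 L4 and V1 L5. In L4 of V1 and S1 its *Kcnc1* was read in 42 and 31 cells, its *Pvalb* in 10 and 18 and its *Cox6a2* in 1 and 3.

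In L5 the *Scn3b* difference of means between areas was under 2-fold. The mean was 5.94 in S1 and 6.45 in V1, a difference of -0.52 (SD 1.27 over 4 dates), with values of 0.96, 0.14, -0.06 and -2.04 on dates 3 to 6. It had no common sign over the dates, and without date 6 it was 0.17. Between medians it was -1.21, and among cells with at least 4000 detected genes it was -1.19, both past 2-fold lower in S1. Whether the L4 and L5 differences differ was not tested. Dates 3 and 5, which serve both layers, gave -4.73 and -0.96 in L4 beside 0.96 and -0.06 in L5. They held only 2 and 3 V1 L4 cells. On date 4, with 1 V1 L4 cell, the L4 means were 5.17 in S1 and 4.41 in V1. On date 6, with 1 L4 cell of each area, they were 0 and 6.16. Over dates 3 to 6 together, the L4 means were 4.01 in S1 and 5.98 in V1.

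*Scn8a* was the member with the largest area difference in L5. It was higher in S1 by 1.62 (SD 0.74; means 7.44 and 5.82), on 4 of 4 dates, with 2.17, 0.46, 1.61 and 1.80 on dates 3 to 6. The difference of medians was 0.91, under 2-fold. This comparison moved many genes: 30.6% of 9993 genes differed at least 2-fold, 21.6% higher and 8.96% lower in S1, with a median of 0.22, and 14% had the same sign on all 4 dates. *Scn8a* was the only 1 of the 5 members past the filter to differ 2-fold. *Scn1a* (0.35), *Scn2b* (0.55), *Scn3a* (-0.87) and *Scn4b* (-0.54) had an SD over dates larger than the difference.

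For layers, only L4 cells of dates 3 to 6 were set beside the L5 cells, which left 7 V1 and 12 S1 L4 cells. In S1, *Scn3b* was higher in L5 by 1.92 (SD 1.14; means 5.94 and 4.01), on 3 of 3 dates, by 2.61, 0.41 and 2.07 on dates 3, 4 and 5. Between layers in S1, 33.8% of genes differed at least 2-fold, 21.9% higher and 11.9% lower in L5, and 26.1% had the same sign on all 3 dates. Of the 5 members past the filter, 1 was 2-fold higher (*Scn3b*) and 1 lower, *Scn3a* at -1.14 (SD 2.27), which was at -0.18 without date 4. *Scn1a* was lower in L5 by a small amount on 3 of 3 dates (-0.51, SD 0.40), and *Scn8a* (0.38), *Scn2b* (-0.0036) and *Scn4b* (0.13) stayed under 2-fold.

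In V1 the layers rested on 17 L5 and 7 L4 cells and on 2 dates, and 39.1% of genes differed at least 2-fold, 14.5% higher and 24.6% lower in L5, and 46.6% had the same sign on both dates, with 25.3% meeting both conditions. *Scn1a*, at 1.66 (SD 0.91), was the 1 member past 2-fold, with 2.25 on date 3 and 0.97 on date 5. It was 1.10 without date 6, and 0.70 with the L4 cells of all dates. *Scn3b* was 0.47 higher in L5 (SD 3.0), with -3.08 on date 3 and 1.17 on date 5. *Scn8a* (-0.85), *Scn2b* (-0.68), *Scn3a* (-0.14) and *Scn4b* (0.65) had an SD over dates larger than the difference.

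To compare different genes, the deposited RPKM values were used, which divide counts by transcript length and by the reads of the cell. Averaged over cells, *Scn3b* ranked 1 of the 6 in V1 L4 (mean 48.6 RPKM) but 4 in S1 L4 (10.6), and it ranked 2 in V1 L5 (56.3) and 3 in S1 L5 (29.1). Its median in V1 L4 was 16.2 RPKM, under those of *Scn1a* (35.7) and *Scn2b* (29.8), so the first rank holds for the mean and not for the median. *Scn1a* had means of 43.8 and 54.2 RPKM in L4 of V1 and S1 and of 60.1 and 51.2 in L5, and *Scn2b* had 33.2 and 44.7 in L4 and 41.5 and 59.2 in L5. *Scn8a* was lower, at 21.3 and 18.8 in L4 and 9.85 and 20.01 in L5. *Scn3a*, from 5.42 to 11.5, and *Scn4b*, from 0.161 to 3.55, had the lowest values in all groups but V1 L5, where *Scn3a* stood above *Scn8a*. The medians ran from 35.7 to 43.8 RPKM for *Scn1a* and from 29.8 to 52.4 for *Scn2b*, and that of *Scn3b* ran from 0 in S1 L4 to 51.1 in V1 L5.

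The share of the family's RPKM held by alpha subunits was lowest in V1 L5. Per cell, the 3 alpha genes made up a median of 47.5% of the sum of the 6 in V1 L4 (quartiles 31.6 and 65.1%), 54.0% in S1 L4 (45.2 and 74.3%), 35.9% in V1 L5 (27.7 and 53.5%) and 49.0% in S1 L5 (42.2 and 55.5%). The quartiles of the 4 groups overlapped, and the V1 L5 cell with none of the 6 genes was left out. In V1 L5 the median sums were 55.5 RPKM for alpha and 95.9 for beta, and 6 of 16 cells held more alpha than beta. *Scn2a1*, an alpha subunit with a mean of 30.6 RPKM in V1 L4, is not among the 6 and is not counted in these shares.

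Both the sum of the beta class and its make-up differed between areas in L4 on the scale of means. The mean beta sum was 81.9 RPKM in V1 L4 and 58.7 in S1 L4, beside medians of 57.8 and 56.9. *Scn3b* made 59.3% of the class mean in V1 L4 and 18.1% in S1 L4. *Scn2b* made 40.5% and 76.1%, and *Scn4b* 0.196% and 5.78%. In L5, *Scn3b* made 55.6% in V1 and 32.8% in S1, and *Scn2b* 40.9% and 66.9%.

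**Figure D5:**
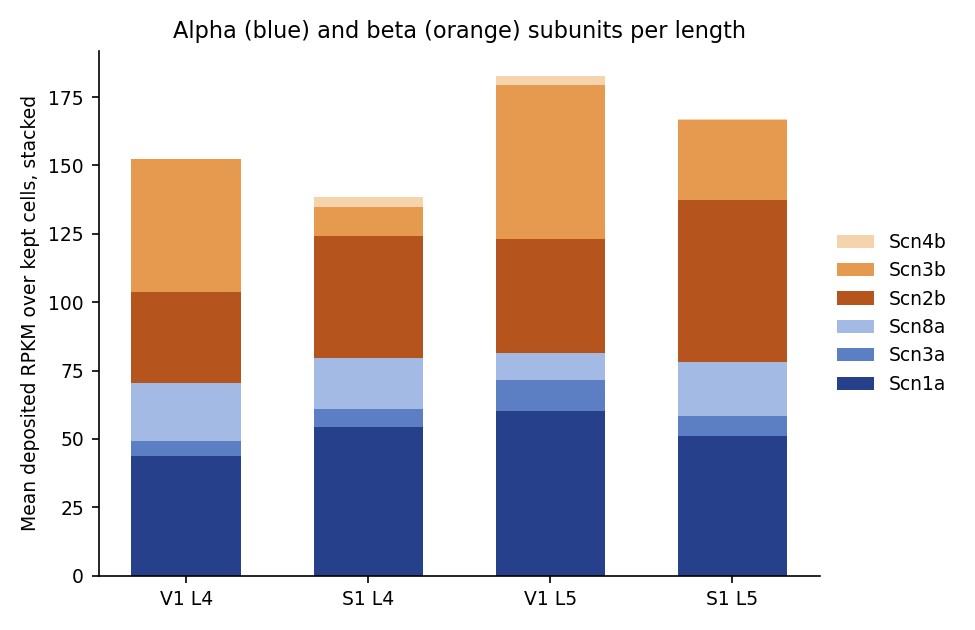
Mean deposited RPKM of the 6 subunit genes over kept cells of each area and layer, stacked, with alpha subunits in blue and beta subunits in orange. Scn3b takes 48.6 RPKM in V1 L4 and 10.6 in S1 L4, and Scn2b 33.2 and 44.7.

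*Scn3b* and *Scn4b* were read together in few cells, and *Scn4b* itself was rare. Of 75 cells with *Scn3b* and 14 with *Scn4b*, 5 had both, which is 6.67% of the first and 35.7% of the second. Over all kept cells 68.8% had *Scn3b*. Of the 14 cells with *Scn4b*, 9 were of S1 L4, where 35.3% of cells had *Scn3b*. In S1 L4, 2 cells had both, 7 *Scn4b* alone, 10 *Scn3b* alone and 15 neither. In V1 L4, 8 cells had neither. Over all kept cells the 15 pairs of members had r between -0.18, for *Scn3b* with *Scn4b*, and 0.16, for *Scn8a* with *Scn2b*, all weak.

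Of the genes around the channel, 26 in 6 lists were measured and 21 passed the filter, the lists having been chosen with earlier results known. Between areas in L4, 2 of the 21 were at least 2-fold higher and 2 lower in S1, with a median of -0.19, beside 7.64% higher and 7.29% lower of all filtered genes. Both higher genes were potassium channel subunits of the axon, *Kcna2* (1.77, SD 1.31, on 5 of 5 dates) and *Kcna1* (2.18, SD 1.63, on 4 of 5). The lower ones were *Scn2a1*, the Nav1.2 alpha subunit (-1.18, SD 2.4), and *Trim46*, which organizes microtubules of the initial segment (-1.97, SD 3.51), each lower on 4 of 5 dates with a spread larger than the difference.

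No other listed gene past the filter differed by 2-fold between areas in L4. Of the initial segment scaffold and adhesion genes, *Nfasc*, a neurofascin of the initial segment and node, was at -0.44. Of the fibroblast growth factor homologous factors, which bind the alpha subunit's tail, *Fgf11* was at 0.48 and *Fgf13* at -0.19. In the sodium leak channel complex *Fam155a* was at 0.58 and *Unc80* at -0.57. Of the regulators, *Nedd4l*, a ubiquitin ligase of membrane channels, was at -0.17 and *Prrt2* at -0.32. Of the alpha subunits known mainly from muscle, glia and peripheral nerve, *Scn10a* had no count in any kept cell, *Scn4a* and *Scn11a* had counts in 2 cells each, *Scn7a* in 1 and *Scn9a* in 22.

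In L5, 6 of the 21 were at least 2-fold higher in S1 and 0 lower (median 0.66), beside 21.6% and 8.96% of all filtered genes. Between layers in S1, 5 were higher and 3 lower in L5, beside 21.9% and 11.9% of all filtered genes. In V1, 2 were higher and 5 lower in L5, beside 14.5% and 24.6%.

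The genes with the pattern most like each member over the kept cells were found by Pearson's r of log2(CPM + 1). They were *Btaf1* (0.55) and *Hnrnpu* (0.52) for *Scn1a*, *B230209E15Rik* and *Zmym4* (0.35 each) for *Scn3a*, and *Mast2* (0.42) and *Trim46* (0.41) for *Scn8a*. For the beta subunits they were *Scamp1* (0.49) and *Trim32* (0.49) for *Scn2b*, *Fam57a* (0.48) and *Camkv* (0.43) for *Scn3b*, and *Pcdhac1* (0.52) and *Fam43a* (0.41) for *Scn4b*. Each filtered gene has such a best partner, with a median r of 0.45 and quartiles of 0.41 and 0.50, so only *Scn1a* and *Scn4b* were above the upper quartile and *Scn3a* was under the lower one. The *Scn4b* partner *Pcdhac1* was itself read in 13 cells. Taken within group and date, the r of *Scn3b* was 0.41 with *Fam57a* and 0.23 with *Camkv*. Among the genes that name the reference types of the study, *Scn3b* had r = 0.15 with *Calb2*, 0.05 with *Pdlim5*, -0.16 with *Hpse* and -0.17 with *Cbln4*, values that are weak for sparse counts of cells sharing depth and area. Taken within group and date, these were 0.15, -0.05, -0.06 and 0.02 in the same order.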

How the data were processed

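Single SOM+ cells were measured by Patch-seq. The authors aligned reads to mm10 with STAR 2.4.2a and deposited raw read counts per gene, and RPKM values made with rpkmforgenes and RefSeq models. Both tables were read by labelled column, with 0 columns unmapped, and the 24490 entries were summed to 23998 symbols (each member has 1 entry). Here counts were scaled to CPM and 1 was added before taking log2. Genes formed a background with at least 32 counts in at least 10 kept cells. Members and lists were chosen with earlier results of these data known. Named genes are the 6 members, their 2 highest partners by r, and the 2 largest L4 area differences of each list. Thinning drew 250000 counts per cell, leaving 106 cells. The functions were tested on simulated data. Sequences and coordinates come from GENCODE M21 (GRCm38). Scripts ran in Python 3.11.15 with SciPy 1.17.1, pandas 2.3.3 and NumPy 2.4.6, figures in matplotlib 3.10.9, and the TMM alternative in edgeR 4.0.16 under R 4.3.3. The electrophysiology and the assignment to reference types were not analysed here, and some genes of the lists, and the alpha share with further subunits added, are not reported here.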

Additional observations from a re-analysis of the deposited data

Results flagged for a closer look

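*Scn1a* was flagged between layers because V1 and S1 went opposite ways on the dates with at least 2 cells of each layer. It was higher in L5 on 2 of 2 dates in V1, by 1.61 on average within dates, and lower in L5 on 3 of 3 dates in S1, with a mean of -0.44 within dates. On date 4, which held 1 V1 L4 cell, the V1 order was the other way, with that cell at 8.49 and a mean of 8.24 in L5. On date 6 the 1 V1 L4 cell was at 4.71 and the L5 mean at 8.68. The mean within-date differences were 2.05 apart on the log2 scale. Over all filtered genes, 46.6% had the same sign on both V1 dates and 26.1% on all 3 S1 dates. The share of genes with opposite signs in V1 and S1 was not counted. The difference between areas was not tested, and the V1 value rests on 17 L5 and 7 L4 cells. Of 12 sets of 4 or 5 date values checked for a single date far from the others, 0 were set apart, where chance gives about 1 in 20.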

How the results depend on the processing

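Of 418 values under alternative settings, 392 stayed within 1 SD over dates (or 1.5 times, for a share of genes), 21 moved further and 5 reversed a difference that was at least 2-fold or larger than its SD. Some settings could not change a value. No L5 cell is from September, so keeping only June and July repeated the value of every L5 and layer difference. All cells left out for lack of *Sst* counts were S1 L4 cells, so keeping them repeated the L5 area and V1 layer differences. Such repeats count among the 392. Counting differences of any size, 37 of 384 alternative values for the members had the opposite sign, in 15 of 24 differences. The L4 area difference of *Scn3b* was at least 2-fold and lower in S1 in 20 of 20 alternatives, from -2.82 to -3.56 as each date was left out, and at -1.88 with a pseudocount of 10 and -2.403 on log2(RPKM + 1). It was -6.11 between medians, which compares with a median of 0 in S1. The S1 layer difference of *Scn3b* moved to 3.24 with a pseudocount of 0.1, to 0.41 between medians and to 3.75 with the L4 cells of all dates, and it was under 2-fold (0.89) with a pseudocount of 10. With each date left out it ran from 1.49 to 2.47, that of V1 from -0.43 to 1.90, and the L5 area difference from -0.95 to 0.17. With the L4 cells of all dates, the S1 layer difference changed sign for *Scn1a* (0.071), *Scn3a* (0.053) and *Scn4b* (-1.002); that of *Scn4b* also did with thinning (-0.039) and with cells lacking *Sst* counts kept (-0.35). The alpha share of counts without length correction was 66.7% for V1 L4 and 70.4% for S1 L4; as each date was left out it ran from 46.2 to 48.0% and from 52.7 to 55.6%. The share of genes past 2-fold in L4 was 31.2% with a pseudocount of 0.1, 2.13% with 10 and 8.59% with no filter, and 15.6 to 20.03% with each date left out; the cause was not tested. September alone could not be run for L5, which has no cells of that span. No paired analysis was possible because no result comes from a test and no label pairs single cells between areas or layers; differences within dates stand in the report.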

Other observations

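The 4 S1 L4 cells left out for lack of *Sst* counts had the sodium channel genes too. *Scn1a* had between 56 and 1859 counts in them, *Scn4b* was read in 1 of them, with 236 counts (7.63 on the log2 scale), and *Scn3b* in another, with 13 counts. The *Scn4b* level of that cell was above that of each of the 14 kept cells with a count, whose highest value was 7.54.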
